A study of Mus musculus with 6 samples.

Results

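The X-zone is the innermost layer of the mouse adrenal cortex, and 6 of its known marker genes were followed here: Akr1c18, Pik3c2g, Thrb, Cyp2f2, Cdk14 and Hsd17b1. They were taken by symbol, all 6 were found among the 54532 genes of the count table, and all 6 were among the 16300 genes that passed the filter on low counts. RNA was sequenced from whole adrenal glands of mice of a WT and a VEGF/LysM group, 3 samples in each, to ask how VEGF-A made by macrophages affects the gland. The name VEGF/LysM joins the growth factor with LysM, the myeloid lysozyme gene whose promoter is widely used to drive Cre in macrophages and other myeloid cells. The labels do not describe the allele, nor give the strain, age, sex or mating history of the mice, and do not tie each replicate to an animal of its own. The p-values then reflect only how these samples varied, which may be technical.

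The X-zone is a remnant of the fetal cortex that lies against the medulla. It is known to regress at puberty in males and during the first pregnancy in females, so its size differs with age, sex and breeding history. Akr1c18, an aldo-keto reductase that inactivates progesterone, is its classical marker. Pik3c2g, a class II phosphoinositide kinase, and Thrb, the thyroid hormone receptor beta, also mark the inner cortex. In a whole gland, fewer cells of a type and less RNA per cell cannot be told apart.

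Library totals ran from 16476879 to 18671950 counts. Y-linked genes gave at most 2 counts in any library, and Xist gave 6687 to 15966, which is the pattern of female tissue in every library. WT replicate 3 held liver transcripts: 10 hepatocyte genes summed to 56496 CPM (counts scaled to a common library size, here to the library total) there, to 269 CPM in VEGF/LysM replicate 3, and to between 10.9 and 27.1 CPM in the other 4. Its lymphocyte genes summed to 880.1 CPM against 71.2 to 285 CPM elsewhere, and its kidney tubule genes to 29.2 CPM against 0.362 to 3.16 CPM. The 4 pan-cortex genes used below, Nr5a1, Cyp11a1, Cyp21a1 and Fdxr, stood in WT replicate 3 at 0.543 of their mean level in WT replicates 1 and 2, on CPM scaled by TMM, a method that corrects library totals for differences in composition. In VEGF/LysM replicate 3 the same ratio was 0.833. Vegfa itself was highest in VEGF/LysM replicate 3, at 501 CPM against 180.3 and 193 CPM in the other VEGF/LysM libraries and 241 to 332 CPM in WT. A whole gland has many sources of Vegfa besides macrophages, so this checks the labels only weakly. The Vegfa log2 fold change was 0.01 (95% interval -0.96 to 0.98). Lyz2, the LysM gene, read 132, 111 and 134 CPM in VEGF/LysM, all below the 186, 275 and 263 CPM of WT (log2 fold change -0.94, 95% interval -1.40 to -0.49; edgeR adjusted p = 0.999).

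None of the 6 X-zone markers differed between VEGF/LysM and WT beyond the spread between libraries. All 6 were higher on average in VEGF/LysM, but this rested on 2 libraries: Akr1c18, Pik3c2g, Cyp2f2 and Hsd17b1 were lowest in WT replicate 3 and highest in VEGF/LysM replicate 3. For Hsd17b1 WT replicate 1 was nearly as high as VEGF/LysM replicate 3. Thrb was also lowest in WT replicate 3, though only just, and Thrb and Cdk14 varied little in any library. Without both libraries 3 of the 6 were higher and 3 lower in VEGF/LysM. Levels below are on this TMM-scaled CPM scale, except where the library total is named.

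Akr1c18 was the most abundant marker per length of transcript and the most variable. The WT libraries read 1717, 1603 and 207 CPM and the VEGF/LysM libraries 939, 1788 and 2989 CPM, each in the order of replicates 1 to 3. WT replicate 3 was lowest by a wide margin, VEGF/LysM replicate 1 was the next lowest, and the groups overlapped. The means were 1175 ± 841 CPM in WT and 1906 ± 1030.2 CPM in VEGF/LysM (SD, n = 3). The log2 fold change was 0.70 ± 0.76 (SE), with a 95% interval of -1.10 to 2.50 (edgeR's quasi-likelihood test, adjusted p = 0.999 over all genes). The highest library held 14.5 times the level of the lowest. The gene (ENSMUSG00000021214) spans chromosome 13, 4132615 to 4150654, minus strand, in GRCm38.

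Pik3c2g followed the same extremes at a lower level. Its libraries read 79.6, 73.4 and 14.7 CPM in WT and 61.8, 70.0 and 198 CPM in VEGF/LysM, in the same order. The other 4 libraries lay within 1.29-fold of each other, VEGF/LysM replicate 3 stood 2.49 times above the highest of the others, and the lowest of the others stood 4.20 times above WT replicate 3. The means were 55.9 ± 35.8 CPM in WT and 109.9 ± 76.3 CPM in VEGF/LysM (SD, n = 3), and the groups overlapped. The log2 fold change was 0.97 ± 0.69 (SE; 95% interval -0.66 to 2.61; edgeR adjusted p = 0.999). The gene (ENSMUSG00000030228) spans chromosome 6, 139587221 to 139969284, plus strand.

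Cyp2f2, a cytochrome P450 of foreign compound metabolism that is also abundant in liver and in airway club cells, shared the high library more than the low one. It stood at 741, 619 and 450.0 CPM in the WT libraries and at 685, 788 and 1712 CPM in VEGF/LysM. VEGF/LysM replicate 3 was 2.17 times above the next highest library, whereas WT replicate 3 was only 1.37 times below the next lowest, and the groups overlapped. The means were 603 ± 146 CPM in WT and 1062 ± 566 CPM in VEGF/LysM (SD, n = 3). The log2 fold change was 0.82 ± 0.39 (SE; 95% interval -0.11 to 1.74), with the smallest unadjusted p of the 6 (0.0747, against an edgeR adjusted p of 0.999). The gene (ENSMUSG00000052974) spans chromosome 7, 27119909 to 27133660, plus strand. WT replicate 3 is also the library with 56496 CPM of hepatocyte genes, whose part in its Cyp2f2 count was not tested. The 7 airway and lung markers summed to 2.25 to 4.69 CPM of the library total, and the club cell gene Scgb1a1 had at most 1 count in any library.

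The 250 bases before the RefSeq start site of these 3 genes, which shared their lowest and highest library, are shown 5′ to 3′ on the strand of the gene (build GRCm38.p6). Capitals mark AGGTCA, the half-site that steroidogenic factor Nr5a1 and the thyroid hormone receptors recognise, searched on both strands. The windows are chr13:4150647-4150896 (minus) for Akr1c18, chr6:139613822-139614071 (plus) for the first of the 2 listed starts of Pik3c2g, and chr7:27119705-27119954 (plus) for Cyp2f2.
Akr1c18: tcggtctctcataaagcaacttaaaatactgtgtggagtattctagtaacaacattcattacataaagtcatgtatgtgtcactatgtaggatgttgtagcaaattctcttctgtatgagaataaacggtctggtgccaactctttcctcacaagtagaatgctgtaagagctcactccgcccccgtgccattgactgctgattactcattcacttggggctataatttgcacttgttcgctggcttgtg
Pik3c2g: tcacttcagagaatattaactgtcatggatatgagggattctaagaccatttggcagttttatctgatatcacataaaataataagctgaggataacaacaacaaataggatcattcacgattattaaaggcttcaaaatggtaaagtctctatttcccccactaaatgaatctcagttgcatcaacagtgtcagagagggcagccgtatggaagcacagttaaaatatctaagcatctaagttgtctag
Cyp2f2: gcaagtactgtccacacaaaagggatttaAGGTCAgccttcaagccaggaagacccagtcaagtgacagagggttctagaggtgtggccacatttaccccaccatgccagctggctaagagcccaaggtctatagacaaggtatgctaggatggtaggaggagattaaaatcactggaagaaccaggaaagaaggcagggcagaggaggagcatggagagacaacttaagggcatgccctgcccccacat

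Cyp2f2 held 1 match, 221 bases before its start. Akr1c18 had none in the window shown and 1 match that begins at base 28 after its start (agagaatcttctAGGTCAgagcagtggctg). Neither listed window of Pik3c2g held one, the second included. Of all 32851 promoter windows, 14.0% held the half-site in these 250 bases and 16.3% in the window that runs to 50 bases after the start. The longer form CAAGGTCA, which includes AGGTCA and is found in 1.56% of the windows with those 50 bases, matched no listed window of Akr1c18, Pik3c2g, Cyp2f2, Thrb or Cdk14. Such a match is a stretch of letters and not a measured binding site.

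Thrb was nearly level across the libraries. It stood at 62.8, 88.7 and 62.2 CPM in the WT libraries and at 78.6, 73.4 and 78.3 CPM in VEGF/LysM, and its 3 VEGF/LysM values lay inside the WT range. The means were 71.2 ± 15.1 CPM and 76.8 ± 2.92 CPM (SD, n = 3), and the log2 fold change was 0.11 ± 0.17 (SE; 95% interval -0.29 to 0.51; edgeR adjusted p = 0.999). WT replicate 3 and VEGF/LysM replicate 3, which differed 14.5-fold in Akr1c18, stood at 62.2 and 78.3 CPM of Thrb. The part of other tissue in the Thrb count of WT replicate 3 was not tested. The gene (ENSMUSG00000021779) spans chromosome 14, 17660261 to 18038090, plus strand. Its first listed promoter window held 1 AGGTCA, 184 bases before the start.

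Cdk14, a cyclin-dependent kinase that works with cyclin Y in Wnt signalling, was low and nearly level. It stood at 11.2, 16.1 and 11.7 CPM in the WT libraries and at 12.2, 15.6 and 12.8 CPM in VEGF/LysM, so the second replicate was highest in each group and the groups overlapped. The log2 fold change was 0.05 ± 0.22 (SE; 95% interval -0.47 to 0.58; edgeR adjusted p = 0.999). The gene (ENSMUSG00000028926) spans chromosome 5, 4803391 to 5420312, minus strand.

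Hsd17b1, which makes active estrogens and androgens, rested on 13 to 37 counts per library, the fewest of the 6 and so with the most counting error. It stood at 2.10, 1.44 and 0.965 CPM in the WT libraries and at 1.41, 1.58 and 2.12 CPM in VEGF/LysM. VEGF/LysM replicate 3 and WT replicate 1 were nearly equal at the top, WT replicate 3 was lowest, and the groups overlapped. The log2 fold change was 0.17 ± 0.39 (SE; 95% interval -0.77 to 1.11; edgeR adjusted p = 0.999). The gene (ENSMUSG00000019301) spans chromosome 11, 101078411 to 101080527, plus strand. The ovary is a main site of this enzyme. The 7 ovary markers summed to 14.4 to 44.9 CPM of the library total, mostly through Inha. Foxl2 had 3 to 118 counts, lowest in WT replicate 3, and Gdf9 had 16 to 45, while Fshr had 0 counts and Cyp19a1 at most 1 in any library. The part of ovary in the Hsd17b1 counts was not tested.

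**Figure D1:**
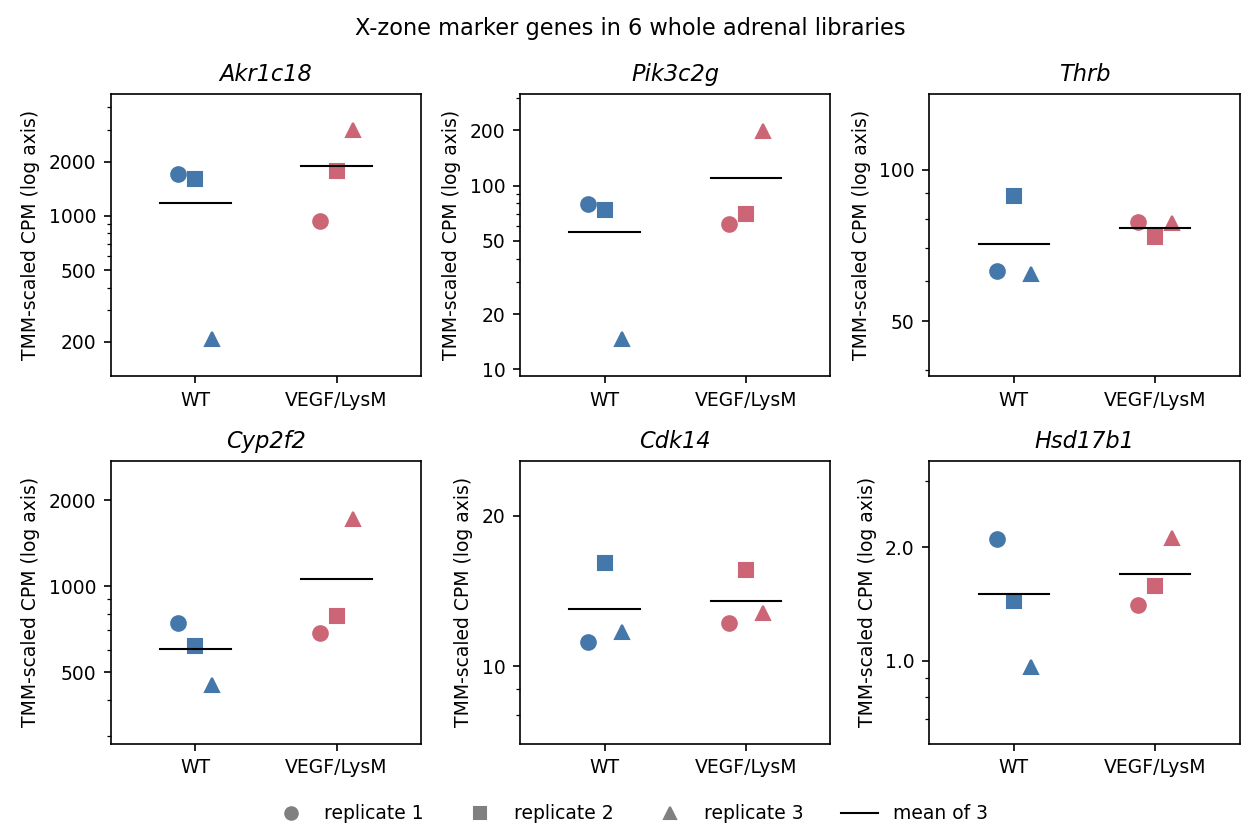
Level of each X-zone marker in TMM-scaled CPM (log axes, a separate range per gene) in WT and VEGF/LysM; each symbol is 1 library and the line is the mean of 3. Akr1c18 spans 207 to 2989 CPM with replicate 3 at both ends, while Thrb spans only 62.2 to 88.7 CPM.

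Per kilobase of exon sequence, the mean level over the 6 libraries put Akr1c18 first at 1276 CPM per kilobase and Cyp2f2 next at 411. Thrb followed at 9.997 and Pik3c2g at 6.55, then Hsd17b1 at 1.197 and Cdk14 at 0.702 CPM per kilobase. Several neighbours in that order overlapped. Akr1c18 was above Cyp2f2 in 5 libraries, but in WT replicate 3 it stood at 171 against 222 CPM per kilobase. Pik3c2g was above Thrb only in VEGF/LysM replicate 3, at 15.6 against 10.6 CPM per kilobase. Hsd17b1 ranged from 0.721 to 1.58 and Cdk14 from 0.593 to 0.852 CPM per kilobase. Akr1c18 and Cyp2f2 were above the other 4 in every library.

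Some of these counts may be shared with other genes. Of the distinct 31-base stretches in the annotated transcripts, 4.15% of those of Akr1c18 occur in another gene, most often in its relative Akr1cl, which itself had 5825 to 32071 counts. For Cyp2f2 the share was 10.9%, mostly with Gm15883, a gene on the opposite strand of the same place that had at most 121 counts. It was 1.04% for Cdk14, 0.149% for Thrb, and 0% for Pik3c2g and Hsd17b1. The libraries do not mark strand, so reads of Cyp2f2 and Gm15883 cannot be told apart where the genes overlap. The 3 genes opposite Thrb had 0 counts.

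No marker was called: edgeR's test found 0 of 6 members at an adjusted p of 0.05, where 0% of all 16300 genes were called. At an unadjusted p under 0.05 there were again 0 of 6, against 2.82% of all genes (459), and limma-voom found 0 of 6 against 1.37% of all genes. DESeq2 found 1 of 6 at that unadjusted level, Cyp2f2, against 3.33% of all genes, and 0 of 6 after adjustment. All 6 fold changes were above 0, where 50.3% of all genes were (61.7% with library totals alone as scaling), and their median was 0.43 against 0.00 for all genes. The groups did not overlap for 0 of 6 members and for 5.95% of genes. In simulated counts with these libraries' spread, edgeR called 0% of 2-fold and 58% of 4-fold changes. These rates are over 50 changed genes of each size and not for the markers, whose own spread differs. The SE was 0.76 for Akr1c18, 0.69 for Pik3c2g and 0.39 for Cyp2f2, and what was detectable for each was not tested.

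Leaving out VEGF/LysM replicate 3 lowered the 3 large fold changes, which follows from its being the highest library for those genes. The same holds for WT replicate 3, their lowest, so only the sizes are informative. Akr1c18 went from 0.70 to 0.21 ± 0.86 (SE), Pik3c2g from 0.97 to 0.24 ± 0.67 and Cyp2f2 from 0.82 to 0.29 ± 0.26 on the log2 scale. Thrb stood at 0.09, Cdk14 at 0.09 and Hsd17b1 at -0.02, so 5 of 6 members remained above 0, where 48.8% of all genes were. The median of the members was then 0.15. Leaving out WT replicate 3 instead gave 0.19 ± 0.39 for Akr1c18, 0.52 ± 0.44 for Pik3c2g and 0.64 ± 0.36 for Cyp2f2, with 4 of 6 above 0 (51.5% of all genes) and a median of 0.10. In that set edgeR called 0 of 6 markers and 0.006% of all genes, a single gene.

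Without both libraries Akr1c18 was at -0.28 ± 0.28 and Pik3c2g at -0.21 ± 0.15 (SE), both turned in direction, and Cyp2f2 was at 0.12 ± 0.17. Hsd17b1 turned as well, to -0.24, while Thrb stood at 0.01 and Cdk14 at 0.03. The median of the members was -0.10, with 3 of 6 above 0 where 50.1% of all genes were. In this set Akr1c18 stood in VEGF/LysM replicates 1 and 2 at 0.566 and 1.08 of the mean of WT replicates 1 and 2. No member was called in any of these sets (edgeR adjusted p of at least 0.999).

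**Figure D2:**
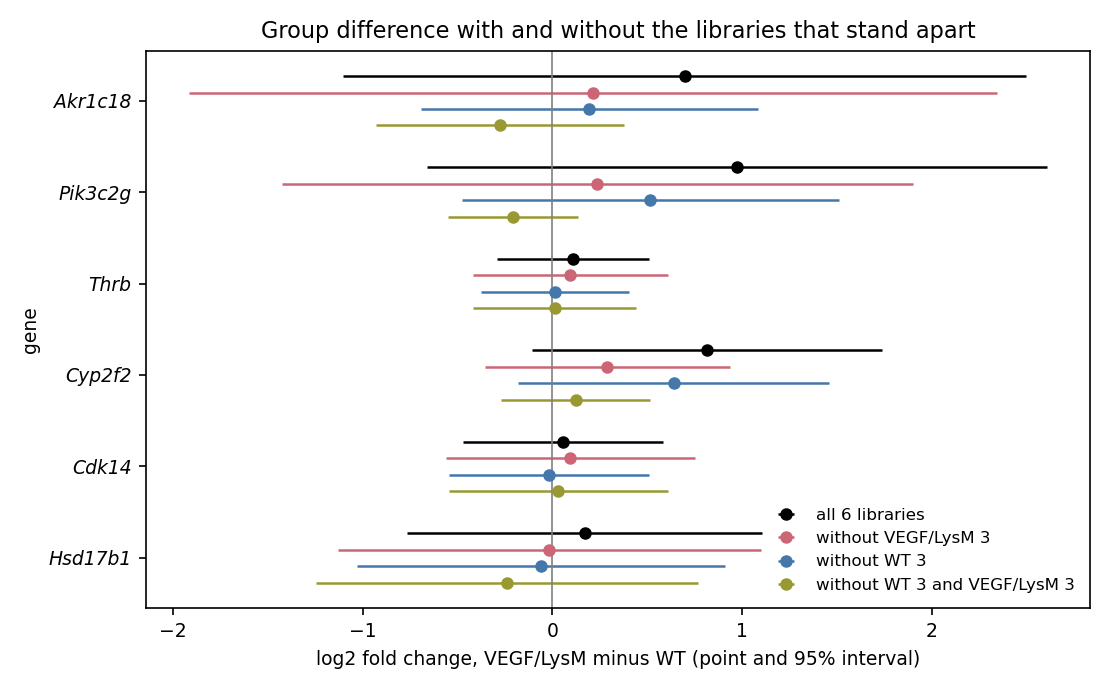
Log2 fold change of each X-zone marker, VEGF/LysM minus WT, as the point with its 95% interval, from all 6 libraries and from fits that leave out VEGF/LysM 3, WT 3 or both. Every interval crosses 0, and for Akr1c18 and Pik3c2g the point moves from 0.70 and 0.97 to -0.28 and -0.21 without both.

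The 6 markers did not move as 1 block across the libraries. Measured from each gene's own median on the log2 scale, all 6 were above it in VEGF/LysM replicate 3 and none was in WT replicate 3. The size differed: in VEGF/LysM replicate 3 Pik3c2g stood 1.46 above its median, Cyp2f2 1.27, Akr1c18 0.85 and Hsd17b1 0.46, but Thrb 0.05 and Cdk14 0.03. In WT replicate 3 the deviations were -3.004 for Akr1c18, -2.28 for Pik3c2g, -0.66 for Cyp2f2, -0.59 for Hsd17b1, -0.28 for Thrb and -0.09 for Cdk14. In VEGF/LysM replicate 1 Akr1c18 stood at -0.82 while the other 5 lay between -0.21 and 0.05. WT replicates 1 and 2 and VEGF/LysM replicate 2 had 4, 3 and 4 of the 6 above their medians.

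**Figure D3:**
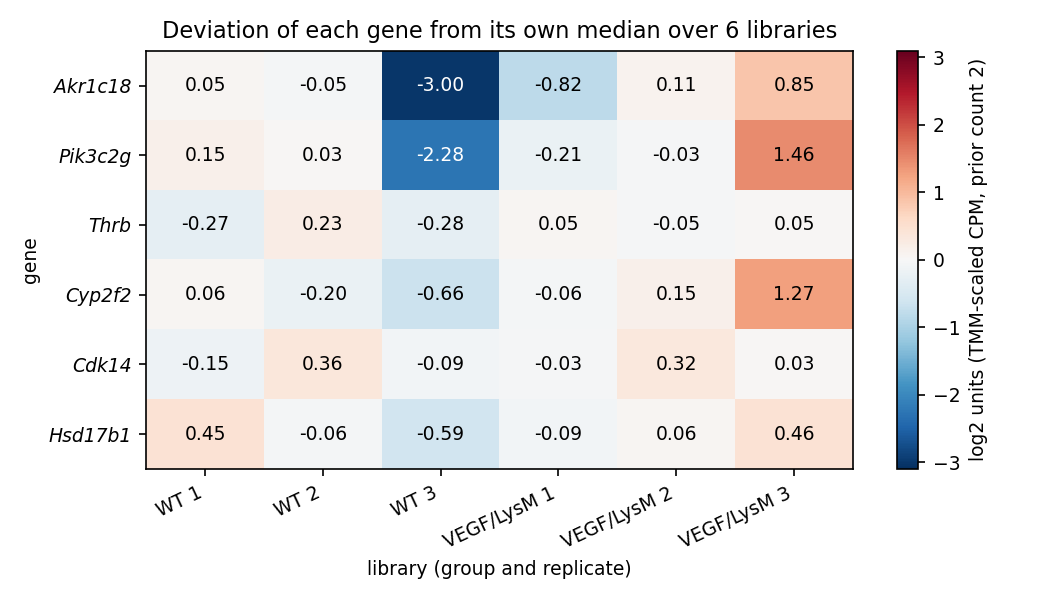
Deviation of each X-zone marker (rows) from its own median over the 6 libraries (columns), in log2 units of TMM-scaled CPM, red above and blue below. Akr1c18 and Pik3c2g are deep blue in WT 3 (-3.004 and -2.28), Pik3c2g and Cyp2f2 are reddest in VEGF/LysM 3 (1.46 and 1.27), and Thrb and Cdk14 stay pale throughout.

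Over the 6 libraries, Akr1c18, Pik3c2g and Hsd17b1 correlated with each other, and Thrb and Cdk14 did not follow them. Of 15 pairs, 14 had a Pearson r above 0, with a median of 0.53. Of all tested genes 51.5% had an r above 0 with Akr1c18, and 2.63% had one above 0.9. The exact permutation test over the 6 libraries (two-sided, adjusted over the 15 pairs) passed for 3 pairs. Akr1c18 with Pik3c2g had r = 0.966 (exact p = 0.00556, adjusted p = 0.0347) and Spearman's rho = 0.829 (exact p = 0.0583, adjusted p = 0.175). Akr1c18 with Hsd17b1 had r = 0.9002 (exact permutation p = 0.00694, adjusted p = 0.0347) and rho = 0.943 (p = 0.0167, adjusted p = 0.0833). Pik3c2g with Hsd17b1 had r = 0.901 (exact permutation p = 0.00417, adjusted p = 0.0347) and the same rho. In no pair did rho pass after adjustment.

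Cyp2f2 came next to these. Its r was 0.787 with Akr1c18 (exact permutation p = 0.121, adjusted p = 0.265; rho = 0.943), 0.891 with Pik3c2g (exact p = 0.0486, adjusted p = 0.182; rho = 0.714) and 0.797 with Hsd17b1 (exact p = 0.0722, adjusted p = 0.217; rho = 0.886). Thrb and Cdk14 had r = 0.714 with each other (exact permutation p = 0.124, adjusted p = 0.265; rho = 0.714), and with the other 4 their r ran from -0.04 to 0.53.

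Most of these correlations were smaller without the libraries at the ends. Without WT replicate 3 and VEGF/LysM replicate 3, the 2 farthest from the Akr1c18 median, r over the other 4 was 0.838 for Akr1c18 with Pik3c2g, 0.529 with Hsd17b1, 0.333 with Cyp2f2, 0.371 with Cdk14 and -0.295 with Thrb. For Pik3c2g with Hsd17b1 it was 0.781. Of the 3 pairs that passed, Akr1c18 with Hsd17b1 lost the most. The choice of libraries was close, as VEGF/LysM replicate 3 lay at 0.85 and VEGF/LysM replicate 1 at -0.82 from the Akr1c18 median. With CPM of the library total, WT replicate 3 and VEGF/LysM replicate 1 were the farthest. Without them r of Akr1c18 was 0.981 with Pik3c2g, 0.996 with Cyp2f2 and 0.608 with Hsd17b1, but 0.062 with Thrb and -0.363 with Cdk14. Values over 4 libraries are given without a test. Scaling mattered too: the median r of the 15 pairs was 0.755 with CPM of the library total and 0.299 when counts were set against the 4 genes of the whole cortex. With that last scaling 0 pairs passed after adjustment, and Akr1c18 with Pik3c2g had r = 0.945 (exact permutation p = 0.0167, adjusted p = 0.125).

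The order of the libraries gives the agreement with and without VEGF/LysM replicate 3. Between Akr1c18 and the other 5 markers, 59 of 75 comparisons of library pairs ran in the same order (78.7%), where all tested genes averaged 50.5% with Akr1c18. Without VEGF/LysM replicate 3 it was 38 of 50 (76.0%, all genes 49.96%), without WT replicate 3 it was 35 of 50 (70.0%, all genes 50.3%), and without both 19 of 30 (63.3%, all genes 49.7%). Cyp2f2 and Hsd17b1 each shared 14 of 15 library pairs with Akr1c18, and 9 of 10 without VEGF/LysM replicate 3. Pik3c2g shared 13 of 15 and 8 of 10. Thrb shared 9 of 15 and 6 of 10, but 4 of 10 without WT replicate 3 and 2 of 6 without both. Over all 15 gene pairs the same order held in 70.7% of comparisons with all libraries, 68.0% without VEGF/LysM replicate 3, 59.3% without WT replicate 3 and 52.2% without both. The agreement was lower without WT replicate 3 than without VEGF/LysM replicate 3, a difference that was not tested.

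Other layers of the gland give a scale for these correlations. The median pairwise r over the 6 libraries was 0.741 for 9 zona glomerulosa markers, 0.765 for 10 medulla markers and -0.02 for 9 zona fasciculata markers, against 0.53 for the 6 X-zone markers. In that order r was above 0 in 36 of 36, 41 of 45 and 18 of 36 pairs, against 14 of 15. The medulla genes, whose layer adjoins the X-zone, summed to 7670, 5891 and 3140 CPM of the library total in WT and to 6182, 6332 and 10114.5 CPM in VEGF/LysM, by replicate number. They were lowest and highest in the same 2 libraries as Akr1c18, and their part in the X-zone values was not tested. The sums of both outer layers by library total were also lowest in WT replicate 3. Zona glomerulosa markers summed to 1640.5 CPM there against 3446 to 4184 CPM elsewhere, and zona fasciculata markers to 13963 against 20870 to 27536 CPM. Not every fasciculata marker followed its sum. On TMM-scaled CPM Cyp11b1, Mc2r, Abcb1b, Frmpd4 and Star were lowest in WT replicate 3. Akr1b7 (1450 CPM) and Aldh1a1 (568 CPM) were highest there, and Mrap and Fdx1 were neither. By library total the X-zone markers summed to 2728, 2516 and 579.8 CPM in WT and to 1828, 2788 and 5149 CPM in VEGF/LysM.

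Set against the 4 genes of the whole cortex, Akr1c18 and Pik3c2g were low in WT replicate 3 whichever of the 4 was the reference. This ratio does not move with how much other tissue a library holds, as long as that tissue lacks the genes in it. WT replicate 3 held liver, lymphocyte and kidney transcripts, and whether those tissues lack the 6 markers was not tested. Cyp2f2 is also abundant in liver, so its ratio there may not be of the cortex alone. With the mean of WT replicates 1 and 2 as 1, WT replicate 3 stood at 0.227 for Akr1c18 and 0.351 for Pik3c2g, but at 1.22 for Cyp2f2, 1.01 for Hsd17b1, 1.47 for Thrb and 1.53 for Cdk14. The 4 reference genes themselves differed in that library: on TMM-scaled CPM Nr5a1 stood at 0.770, Cyp11a1 at 0.583, Cyp21a1 at 0.465 and Fdxr at 0.417 of the mean of WT replicates 1 and 2. With each of the 4 alone as the reference, Akr1c18 ran from 0.161 to 0.292 and Pik3c2g from 0.249 to 0.451. Thrb ran from 1.04 to 1.86 and Cdk14 from 1.09 to 1.95, but Cyp2f2 from 0.860 to 1.57 and Hsd17b1 from 0.714 to 1.31, so the side of these last markers depends on the reference gene. VEGF/LysM replicate 3 stood at 2.14 for Akr1c18, 3.08 for Pik3c2g, 3.02 for Cyp2f2, 1.45 for Hsd17b1, 1.204 for Thrb and 1.09 for Cdk14. The ratio of Akr1c18 was 0.579 in VEGF/LysM replicate 1 and 1.13 in VEGF/LysM replicate 2. This scaling was chosen after the data were seen. It moved the median log2 fold change of all genes to -0.21, with 21.5% of genes above 0. With it 4 of 6 markers were above 0, up to Pik3c2g at 1.05, while Thrb (-0.10) and Cdk14 (-0.16) were below. All 6 lay above the median of all genes, Cdk14 only just.

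**Figure D4:**
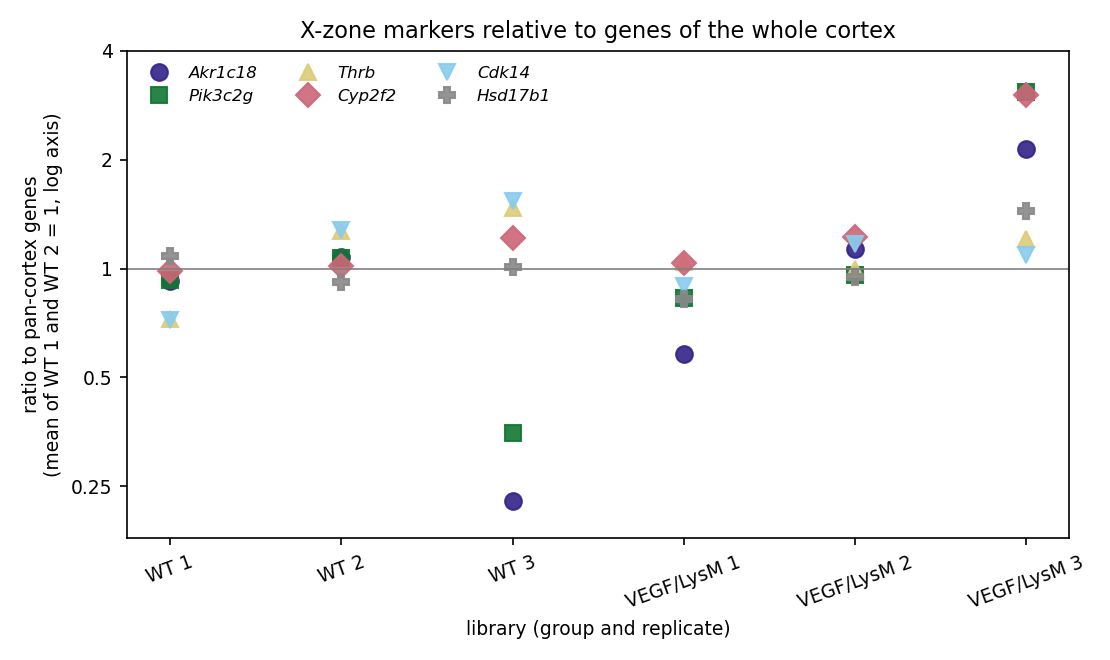
Ratio of each X-zone marker to the geometric mean of Nr5a1, Cyp11a1, Cyp21a1 and Fdxr in the 6 libraries (log axis; mean of WT 1 and WT 2 set to 1). In WT 3 Akr1c18 (0.227) and Pik3c2g (0.351) fall far below the other markers, and in VEGF/LysM 3 Pik3c2g, Cyp2f2 and Akr1c18 stand at 2.14 to 3.08.

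The genes most like Akr1c18 over the 6 libraries were not the other X-zone markers. Among genes of at least 5 CPM, the highest Pearson r on the log2 scale belonged to Chrd, the BMP antagonist chordin (0.993), Armcx2 (0.993), Tmem185b (0.992), Pigf (0.990), Serpina3c (0.990) and Sez6l2 (0.989). Their levels moved far less than that of Akr1c18: Chrd ran from 12.4 CPM in WT replicate 3 to 26.0 CPM in VEGF/LysM replicate 3, and Tmem185b from 23.0 to 30.4 CPM. Pik3c2g ranked 62 of 16299 genes by this r, Hsd17b1 428, Cyp2f2 1507, Thrb 4237 and Cdk14 5476. With an r above 0.9 there were 429 genes, 2.63% of those tested.

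Relatives and partners of the markers were read from lists, and no tested gene of them passed (edgeR adjusted p = 0.999 for every tested gene named here). In the AKR1C family 6 of 10 genes were tested, 2 above and 4 below 0, with a median log2 fold change of -0.29 against 0.00 for all genes. Akr1c12 and Akr1c14, neighbours of Akr1c18, ran opposite to it in WT replicate 3. Akr1c12 stood at 36.9 CPM in WT replicate 3 against 0.176 to 0.670 CPM elsewhere (log2 fold change -5.01 ± 1.79, SE), and Akr1c14 at 142 CPM against 1.19 to 3.42 CPM (-4.37 ± 1.79). Akr1c6, a liver member, gave 7137 counts in the third WT library, 44 in the third VEGF/LysM library and 0 elsewhere. It did not pass the filter on low counts, so it was not tested, and it was named after its values were seen. The hepatocyte sum of 56496 CPM in WT replicate 3 moves with these genes, and its part was not tested.

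Among CYP2 genes, 1 of 8 tested was above 0, Cyp2f2 itself, and the median was -0.80. Cyp2e1, an abundant liver enzyme also present in these glands, stood at 4990.1 CPM in WT replicate 3 and 668 CPM in VEGF/LysM replicate 3, and at 124 to 327 CPM elsewhere. Cyp2d22 stood at 232 CPM in WT replicate 3 against 43.4 to 58.0 CPM elsewhere. Cyp2f2 was instead lowest in WT replicate 3, at 450.0 CPM, on this scaling.

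For thyroid hormone action, 7 of 15 tested genes were above 0 with a median of -0.10. Slc16a10, a transporter of aromatic amino acids and thyroid hormone, stood at 135 CPM in WT replicate 3 against 15.3 to 21.3 CPM elsewhere (-1.69 ± 0.80, SE). Thrsp, a thyroid hormone responsive gene of fat synthesis, stood at 718, 926 and 1076 CPM in the WT libraries and at 546, 878 and 474 CPM in VEGF/LysM (-0.52 ± 0.28).

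Phosphoinositide kinases had 6 of 11 genes above 0 (median 0.02). Pik3c2b, the class II relative of Pik3c2g, stood at 11.5, 13.2 and 18.6 CPM in the WT libraries and at 9.85, 8.94 and 10.4 CPM in VEGF/LysM (-0.57 ± 0.24, SE). Pik3cd, a kinase subunit of white blood cells, stood at 63.6 CPM in WT replicate 3 against 12.5 to 17.7 CPM elsewhere. Cdk14 with its relatives and partners had 5 of 8 tested genes above 0, Cdk14 itself included (median 0.08). Lrp6, a Wnt co-receptor, was at 0.25 ± 0.14 and Cdk18 at -0.26 ± 0.16. Of the hydroxysteroid dehydrogenases related to Hsd17b1, 1 of 6 tested was above 0, Hsd17b1 itself (median -0.23). Hsd17b4, of peroxisomal fat oxidation, was at -0.43 ± 0.38 and Hsd17b10 at -0.23 ± 0.17.

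Regulators of the X-zone and the fetal cortex had 15 of 22 tested genes above 0, with a median of 0.08. Nr0b2, a repressor among nuclear receptors, stood at 30.3, 29.1 and 34.7 CPM in the WT libraries and at 24.3, 21.4 and 12.1 CPM in VEGF/LysM (-0.70 ± 0.27, SE). Prlr, the prolactin receptor, stood at 221, 301 and 381 CPM in the WT libraries and at 482, 364 and 373 CPM in VEGF/LysM (0.43 ± 0.24). Steps that make or use progesterone and deoxycorticosterone had 11 of 13 above 0 (median 0.18). Cyp11b1, the last step to corticosterone, had a log2 fold change of 0.44 ± 0.23, and Srd5a1, a steroid reductase, -0.40 ± 0.22. The groups did not overlap for Nr0b2, Pik3c2b, Lrp6 and Cyp11b1, as for 5.95% of all genes. These were picked by their p in the same libraries, so this adds nothing to them.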

How the data were processed

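Bulk RNA sequencing of whole adrenal glands, in 6 libraries, was used. The deposited table holds whole-number counts per gene, not normalised. The submitters' processing notes name kallisto, build mm10 and DESeq2 1.36.0. What each did, the annotation, and how whole numbers were made are points not given in the sources used here. Per the labels' protocols, libraries followed Smart-seq2, which does not mark strand. No pair of libraries was identical.

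Genes were filtered by filterByExpr (minimum count 10, minimum total 15) and scaled by TMM. The quasi-likelihood model of edgeR 4.0.16 (R 4.3.3) had group as its term, with Benjamini-Hochberg adjustment over 16300 genes and a threshold of 0.05. Positive fold changes mean higher in VEGF/LysM. Standard errors were taken from the coefficient and its F statistic. Permuting 3 against 3 allows no p under 0.1, and no such test of a group difference was run. Correlations used log2 CPM with a prior count of 2 and all 720 orders of the libraries. Totals ran from 16476879 to 18671950 counts, and precision is lowest for Hsd17b1, at 13 to 37 counts.

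Alternatives were other scalings and filters, a replicate block, DESeq2 1.42.0, limma-voom (limma 3.58.1), each library left out, and both libraries with liver transcripts left out. Scaling by 4 pan-cortex genes, together or each alone, was added after the data were seen. Named genes were the 6 members, the 2 smallest p of each related list, and the 6 genes of at least 5 CPM most correlated with Akr1c18. Members and lists were chosen with earlier results of these data known. Coordinates are from GENCODE M21 (GRCm38, the assembly of mm10), and promoters from RefSeq (GRCm38.p6), which listed 5 of the 6 members. Simulated counts with 200 of 16300 genes changed tested the steps, with 6 false calls among 74.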

Additional observations from a re-analysis of the deposited data

How the results depend on the processing

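No X-zone marker was called under any of the 16 alternatives, in which the 6 markers' edgeR, DESeq2 or limma-voom adjusted p was never below 0.668. Over all genes 0 were called with all libraries, and leaving out 1 library gave 0 to 1, the 1 being without WT replicate 3. All 6 markers stayed above 0 under the other scalings, filters and tools run, except that with pan-cortex scaling Thrb (-0.10) and Cdk14 (-0.16) turned and 4 stayed above 0. Leaving out 1 library gave 4 to 6 markers above 0 and a median of 0.10 to 0.74. Over those 6 fits Cdk14 ran from -0.076 to 0.24, turning without WT 1, WT 3 or VEGF/LysM 2 (-0.04, -0.02 and -0.08). Hsd17b1 ran from -0.062 to 0.49, turning without WT 3 (-0.06) or VEGF/LysM 3 (-0.02). Without both libraries with liver transcripts Akr1c18 (-0.28), Pik3c2g (-0.21) and Hsd17b1 (-0.24) turned, 3 markers were above 0 and the median was -0.10. The cause was not tested. The median r of the marker pairs was 0.53, moving to 0.755 with CPM of the library total and 0.299 with pan-cortex scaling. With a replicate block the median was 0.45, 0 markers were called and Akr1c18 had a log2 fold change of 0.86. Deviations of same-numbered libraries correlated at 0.06, -0.01 and 0.25, the last for the replicates 3, and those of other pairs at -0.25 to 0.32. These few values cannot tell whether same-numbered libraries shared a batch or dissection, which the labels do not state. Depth limits Hsd17b1, at 13 to 37 counts, most.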
